A study of Mus musculus with 8 samples.

Results

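The Slc38 genes encode sodium-coupled transporters of neutral amino acids, and they were read here as methylated DNA fragments in mouse liver before birth and at weaning. Members were all autosomal probes of both array designs whose gene name on the array was Slc38a followed by a number: 35 of 83122 probes, in 8 of 18946 regions and 4 genes. Slc38a4 had 15 of these probes, Slc38a3 had 12, Slc38a2 had 5 and Slc38a1 had 3. The family was selected on the age ratios of Slc38a4, whose fragments gave a lower signal at weaning in these same arrays. These ratios are therefore a description and carry no test.

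The liver came from C57BL6/J mice at embryonic day 17.5 (E17.5) and postnatal day 21 (P21), with 2 biological replicates of each age. No treatment or genetic change is named, and the labels do not say whether a replicate was 1 animal or a pool. Methylated DNA was enriched by MCAM, in which fragments between methylated CCCGGG sites are amplified and hybridised, and a probe is brighter where its fragment is more methylated. Cy3 always marked the E17.5 DNA and Cy5 the P21 DNA, which means that age and dye cannot be told apart. The 2 ages of a replicate shared an array, and all member probes were on the design labelled chr11 to chrY, although the probe names place Slc38a3 on chromosome 9. Each member thus had 2 arrays behind it, and that number limits the precision. The arrays carry no expression values, so the liver label could not be checked against the levels of marker genes.

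Sodium-coupled neutral amino acid transporters use the sodium gradient to bring glutamine, alanine, asparagine and related amino acids into cells. Slc38a1, Slc38a2 and Slc38a4 belong to the system A branch, which prefers short-chain amino acids, and Slc38a3 to the system N branch, which carries glutamine, histidine and asparagine. Slc38a4 is a liver and placental transporter and is imprinted in the mouse, with expression mainly from the paternal copy; at imprinted genes the methylation of the parental copies can differ.

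The Slc38a4 gene has 3 annotated transcription starts in RefSeq (GRCm38.p6), and the array covers it in 4 regions at 3 separate places. The windows before these starts and before the single Slc38a2 entry are shown because CG pairs are what methylation acts on and CCCGGG is the site the assay cuts. Each run is the 250 bases upstream of a start, 5′ to 3′ on the minus strand, with CG and CCCGGG in capitals and the rest in lower case.
Slc38a4, start 1, chr15:97055957-97056206: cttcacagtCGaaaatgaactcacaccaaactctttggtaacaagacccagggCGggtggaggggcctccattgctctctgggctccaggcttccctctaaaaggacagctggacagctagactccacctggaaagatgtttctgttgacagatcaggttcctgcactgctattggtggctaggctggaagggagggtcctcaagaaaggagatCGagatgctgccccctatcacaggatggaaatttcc
Slc38a4, start 2, chr15:97031214-97031463: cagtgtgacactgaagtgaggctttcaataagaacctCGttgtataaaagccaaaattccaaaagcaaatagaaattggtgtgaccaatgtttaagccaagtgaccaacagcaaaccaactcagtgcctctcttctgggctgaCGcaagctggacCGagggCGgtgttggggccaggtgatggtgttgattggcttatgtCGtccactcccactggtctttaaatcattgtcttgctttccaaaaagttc
Slc38a4, start 3, chr15:97020360-97020609: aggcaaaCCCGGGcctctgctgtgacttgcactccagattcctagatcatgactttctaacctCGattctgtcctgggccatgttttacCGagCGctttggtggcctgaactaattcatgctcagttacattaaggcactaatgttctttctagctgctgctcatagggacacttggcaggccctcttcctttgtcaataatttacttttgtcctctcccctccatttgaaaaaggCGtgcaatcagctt
Slc38a2, chr15:96699729-96699978: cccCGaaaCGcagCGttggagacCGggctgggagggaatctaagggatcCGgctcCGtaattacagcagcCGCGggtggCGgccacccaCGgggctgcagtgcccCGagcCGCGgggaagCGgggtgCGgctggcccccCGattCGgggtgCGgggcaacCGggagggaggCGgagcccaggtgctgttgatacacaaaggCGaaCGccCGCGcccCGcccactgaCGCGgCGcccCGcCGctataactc
The Slc38a4 windows held 3, 5 and 5 CG pairs with a GC content of 52.8%, 46% and 47.2%, whereas the Slc38a2 window held 30 CG pairs at a GC content of 72%. Over 32851 RefSeq promoter windows of the same length the median was 6 CG pairs and a GC content of 52.4%, and 92.1% held at least 1 CG. The palindromic CCCGGG, which reads the same on both strands, was found once before start 3 of Slc38a4 and in none of the other 3 windows shown. It occurred in 11.2% of the 32851 windows. A match here is a description of the letters in the window.

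Starts 2 and 3 lie 24.7 and 35.6 kb from start 1 in GRCm38.p6. The array files give their own probe coordinates, of a genome build not given in the sources used, and list each probe as PROMOTER or INSIDE (the gene). Measured from the point where PROMOTER passes to INSIDE, the tested Slc38a4 probes fell into a group around the boundary, a group 23.7 to 24.3 kb into the gene and a group 35.0 to 35.9 kb into the gene. These distances stand within their own builds and no coordinate was moved from one to the other. Whether the probe groups lie at the annotated starts was not tested.

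A probe was tested when, on both arrays, 1 or more of its channels stood well above background and it was no outlier spot, which left 22 of the 35 member probes, and 59516 of all 83122. Of the 15 Slc38a4 probes 8 were tested. Of the other 7, 4 were not well above background in any of the 4 channels. Probes that dim carried a ratio of their own: over the 9059 probes of this design that were dim in all 4 channels, the median log2 ratio of P21 over E17.5 was -0.38 on replicate 1 and -0.91 on replicate 2. All ratios below are of processed signals, centred on each array's median.

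The 2 probes farthest into Slc38a4 were lower at P21 on both arrays. The probe at chr15:97087669-97087729 gave a signal of 3470 and 3271 at E17.5 (replicates 1 and 2) and of 1398 and 1437 at P21. Both P21 signals lay well below both E17.5 signals, and the replicates of an age were close. Its log2 ratio was -1.32 and -1.21, a mean of -1.27 ± 0.08 (SD, n = 2 arrays, as for all ratios below), or 2.41-fold lower at P21. The neighbouring probe at chr15:97087900-97087960 gave 10184 and 9444 at E17.5 and 4407 and 4824 at P21. Again the ages did not overlap, and the log2 ratio was -1.22 and -0.99, a mean of -1.11 ± 0.16. Joined as a region (probes no more than 500 bp apart, chr15:97087669-97087960), the pair had a log2 ratio of -1.27 and -1.10, or -1.19 ± 0.12. That is 2.28-fold lower at P21 and ranked 92 from the lowest of 17617 tested regions. With normexp background correction of the unprocessed signals the same region was at -0.47, so its distance from 0 shrank while its direction stayed.

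Close by, the probe at chr15:97088584-97088641 stood alone as a region. Its signals were near background, at 104 and 97.1 at E17.5 and 91.8 and 216 at P21. It was well above background on 1 of 2 arrays at E17.5 and on both at P21, and the ages overlapped. Its log2 ratio was -0.19 and 1.13, a mean of 0.47 ± 0.93, so the arrays disagreed in sign. With normexp both arrays were below 0, at -0.49 and -0.23, and the mean turned to -0.36.

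The middle region, chr15:97098667-97099925, was lower at P21 in 2 of its 3 tested probes and not in the other. At chr15:97099869-97099925 the probe gave 1453 and 1714 at E17.5 and 605 and 429 at P21. The ages did not overlap, and the log2 ratio of -1.28 and -2.02 averaged -1.65 ± 0.53, or 3.14-fold lower. Next to it, the probe at chr15:97099693-97099753 gave 520 and 303 at E17.5 and 122 and 52.1 at P21. At P21 it was well above background on replicate 1 only, so the replicate 2 ratio rests on a P21 signal near background. Its log2 ratio was -2.10 and -2.56, a mean of -2.33 ± 0.33, and with normexp the mean was -0.80. The remaining tested probe, at chr15:97099278-97099338, gave 920 and 719 at E17.5 and 1047 and 745 at P21. Its ages overlapped, with a log2 ratio of 0.17 and 0.03, or 0.10 ± 0.10.

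The middle region as a whole had a log2 ratio of -1.07 and -1.52, or -1.29 ± 0.32. This is 2.45-fold lower at P21 and ranked 67 from the lowest of 17617. Of its other 3 probes 2 were dim in every channel, and the probe at 97099508 was well above background on 1 array at E17.5 (signals of 203 and 96.5) and on none at P21 (68.7 and 49.4). The region's value leaned on the filter and the background correction: it was -0.78 with probes well above background in both channels only, -0.40 with normexp and loess, and -0.44 with normexp. It stayed below 0 in each.

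The boundary region, chr15:97123496-97124611, which holds the PROMOTER probes, was nearly level between the ages. The probe at chr15:97123704-97123749 gave 9484 and 7559 at E17.5 and 10391 and 8449 at P21. Its log2 ratio was 0.12 and 0.14, or 0.13 ± 0.01. Upstream of it, the probe at chr15:97124417-97124462 gave 2661 and 2532 at E17.5 and 2798 and 2527 at P21. Its log2 ratio was 0.06 and -0.03, or 0.02 ± 0.06, and for both probes the ages overlapped. The region averaged 0.07 ± 0.02, and the other 4 of its 6 probes were not tested. This near-level value depended on the processing. It was 0.60 with normexp, from 0.71 and 0.49 for its probes, and -0.32 with dim probes kept. With normexp and loess it was again near level, at 0.061.

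Ordered by distance into the gene, the tested probes 23.7, 23.9, 35.7 and 35.9 kb from the boundary were lower at P21 on both arrays, and the other 4 were not. The 7 untested Slc38a4 probes all had ratios below 0. The probe at 97099508, 24.1 kb into the gene, had -1.58 and -0.99. Farther in, the probes at 97098667 and 97098903 had -0.36 and -0.88 and -0.40 and -0.95. In the boundary region those at 97123496, 97123955, 97124152 and 97124551 had -0.40 and -0.94, -0.45 and -1.02, -0.35 and -0.84 and -0.72 and -0.94. They stand beside the medians of -0.38 and -0.91 for probes of this design that were dim in all channels, and are not read as a change. Those medians do not cover the probes at 97099508, 97123496 and 97124551, each of which was well above background in 1 channel.

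Counted over the gene, 3 of the 6 tested INSIDE probes of Slc38a4 were at least 2-fold lower at P21 on both arrays, and 0 of its 2 tested PROMOTER probes were. The INSIDE count includes the probe at chr15:97099693-97099753, which on replicate 2 passed the filter through its E17.5 signal only. With normexp 0 of the 8 tested Slc38a4 probes were at least 2-fold lower on both arrays. The share of all probes with normexp was not counted. Over all regions, 4 were that low with normexp against 52 as processed here, so the 0 is not read as a result about Slc38a4. As processed here, 407 of all 59516 tested probes were at least 2-fold lower on both arrays (0.684%). So were 71 of 10497 INSIDE probes of this design (0.676%) and 129 of 16607 PROMOTER probes (0.777%). Both P21 signals lay below both E17.5 signals in 4 of the 8 tested Slc38a4 probes and 1 of the other members' 14, against 10.4% of all tested probes. That 1 is the Slc38a1 probe near background. This count sets uncentred signals of different arrays side by side and does not use the pairing of the ages on an array. Of the 4 Slc38a4 regions 2 were at least 2-fold lower on both arrays, among 52 of 17617 regions (0.295%). At least 2-fold higher at P21 on both arrays were 0 of the 8 tested Slc38a4 probes and 139 of all 59516 (0.234%). Since these ratios chose the gene, nothing is read from the shares.

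In limma's test over all 17617 regions with Benjamini-Hochberg adjustment, 0 regions were called (adjusted p under 0.05 and at least 2-fold, 0% called). The lowest adjusted p was 0.140, and 2077 regions (11.8%) had an unadjusted p under 0.05. No Slc38 region was therefore called. Liver is a mixture of cell types, and a change in methylation within a cell type cannot be told apart here from a change in the share of cells that carry it. Regions of 27 genes of blood-forming cells, which fill the fetal liver, had a median log2 ratio of 0.05 over 34 regions (7 lower and 16 higher at P21 on both arrays, or 20.6% and 47.1%, against 32% and 32.1% of all regions). Regions of 16 hepatocyte genes had a median of 0.01 over 16 regions (6 lower and 5 higher, or 37.5% and 31.2%). The part of cell composition in the Slc38a4 ratios was not tested.

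As processed here, Slc38a2 and Slc38a3 were close to level, and Slc38a1 was barely measured. Slc38a2, a widely expressed system A transporter that cells raise when amino acids run short, had 4 tested probes in chr15:96767200-96768283. The region's log2 ratio was 0.05 on each array, and it was 0.11 with normexp, 0.18 with dim probes kept and 0.25 at a gap of 200 bp. Its probes lay on both sides of 0. The probe at chr15:96767759-96767810 gave 2778 and 915 at E17.5 and 4063 and 1283 at P21, a log2 ratio of 0.50 ± 0.05. In contrast, the probe at chr15:96768228-96768283 gave 718 and 457 at E17.5 and 516 and 370.3 at P21, a log2 ratio of -0.41 ± 0.11. For both probes the ages overlapped, because the replicates differed in brightness more than the ages did. The remaining Slc38a2 probe was left out as an outlier spot, with signals of 2748 and 3099 on replicate 1 and of 104809 and 58666 on replicate 2.

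Slc38a3, the system N transporter that handles glutamine in hepatocytes, had 2 regions on chromosome 9. The region chr9:107732901-107734080 had a log2 ratio of 0.07 and 0.19, or 0.13 ± 0.09, over 5 tested probes. The region chr9:107734592-107735749 had 0.08 and 0.11, or 0.09 ± 0.02, over 4 tested probes. It was 0.33 with normexp, 0.087 with normexp and loess and 0.0063 with dim probes kept. The 9 Slc38a3 probes ranged from -0.16 to 0.41. The highest, at chr9:107733292-107733337, gave 2585 and 2331 at E17.5 and 3331 and 3287 at P21, so that both P21 signals lay above both E17.5 signals. That held for 2 of the 9 Slc38a3 probes and for 9.42% of all tested probes.

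Slc38a1, a system A transporter best known from neurons, had 1 tested probe, at chr15:96691897-96691957. It gave 143 and 98.5 at E17.5 and 71.5 and 94.2 at P21, and was well above background on 1 array at each age. Its log2 ratio of -1.02 and -0.09 averaged -0.55 ± 0.66, a spread wider than its size. Both P21 signals lay below both E17.5 signals, narrowly, but 2 of the 4 values were not well above background.

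Over the 14 tested probes of Slc38a1, Slc38a2 and Slc38a3 together, the median log2 ratio was 0.09 and the range -0.55 to 0.50. None was at least 2-fold lower on both arrays, but only 0.684% of all tested probes were, so 14 probes are too few for this to be read. On both arrays 3 were lower (32.6% of all tested probes were) and 7 were higher (also 32.6%, since centring on the median balances the counts). The mean of the 4 Slc38a4 regions was -0.61 on replicate 1 and -0.36 on replicate 2, and the median of the other members' 4 regions was 0.06 and 0.08. The difference, Slc38a4 minus the others, was -0.67 and -0.44, or -0.55 ± 0.16. An exact two-sided test over 2 arrays cannot go below p = 0.5, and the contrast was part of the choice, so no test is given. The mean includes the single dim probe with opposite signs. With regions of at least 2 tested probes, a choice made after the data were seen, the difference was -0.89, and with normexp it was -0.30.

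The array lists 4 further family members under older names, which the choice by array name leaves out. Slc38a9 (named 9130023D20Rik on the array), a lysosomal amino acid sensor, had a log2 ratio of 0.09 ± 0.05 in a region it shares with a Ddx4 name. Slc38a11 (9330158F14Rik) had -0.14 ± 0.15 and Slc38a8 (Gm587) had -0.38 ± 0.29, both on the other array design. Slc38a10 (1810073N04Rik) had -0.50 ± 0.24. Within Slc38a10 the probe at chr11:119971859-119971913 gave 259 and 680 at E17.5 and 131 and 113 at P21. The ages did not overlap there, yet the log2 ratio of -0.99 and -2.61 differed widely between the arrays, with a mean of -1.80 ± 1.15. None of these 4 regions was at least 2-fold lower on both arrays, as were only 0.295% of all regions. The X-linked Slc38a5, left out by the choice of autosomes, had 0.21 ± 0.06 over 2 tested probes.

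Amino acid transporters of other families gave the background for function. Of 49 genes 46 were measured, in 51 regions with a median log2 ratio of -0.00, as over all 17617 regions. Of these regions 15 were lower on both arrays and 14 higher (29.4% and 27.5%, against 32% and 32.1% of all regions). At least 2-fold lower on both arrays were 0, against 0.295% of all regions, and 0 were called. At that share a list of this size is too small for the 0 to be read. The lowest were Slc36a2, a proton-coupled transporter of small amino acids, at -0.71 ± 0.22, Slc7a10 at -0.48 ± 0.05 and the X-linked cationic transporter Slc7a3 at -0.39 ± 0.41. With normexp these were -0.09, -0.23 and -0.27. The highest were Slc6a15 (0.22 ± 0.24), the proline transporter Slc6a7 (0.21 ± 0.05) and the vesicular glutamate transporter Slc17a7 (0.20 ± 0.10). With normexp the first and second of these turned to -0.06 and -0.23, and Slc17a7 stood at 0.16.

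Imprinted genes other than Slc38a4 gave the background for imprinting. Of 61 listed names 47 genes were measured, in 59 regions with a median log2 ratio of -0.01. Of these 19 were lower on both arrays and 16 higher (32.2% and 27.1%, against 32% and 32.1% of all regions). At least 2-fold lower on both were 0, against 0.295% of all regions, and 0 were called. At that share a list of this size is too small for the 0 to be read. Mcts2 stood at -0.62 ± 0.75 and Nnat at -0.55 ± 0.29, both of them paternally expressed genes that lie in an intron of another gene. With normexp these were -0.21 and -0.23, and the arrays then differed in sign for Nnat (-0.54 and 0.07). The highest was Igf2, the fetal growth factor, at 0.44 and 0.92, or 0.68 ± 0.35. Commd1 stood at 0.32 ± 0.08, and the Peg3 and Usp29 region at 0.28 ± 0.71. With normexp these were 0.37, 0.41 and 0.06.

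Over the reported processing and 9 other ways of processing, the 2-probe region lay between -1.24 and -0.47, the middle region between -1.29 and -0.40 and the boundary region between -0.32 and 0.60. The first and second of these were below 0 in each, which is a description only, since the gene was chosen on these ratios. The value nearest 0 came with normexp for the 2-probe region and with normexp and loess for the middle region.

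The regions whose 4 centred log2 signals (2 ages on 2 arrays) came closest to those of each Slc38a4 region were found among 6935 named regions of the same design, by Euclidean distance in log2 units. Levels of different probes also reflect their sequences, so this describes likeness of signal only. The distance uses the signals of both ages, so by construction it favours regions with like age ratios, though it does not fix them. The ratios of near regions therefore add nothing further. Nearest to the 2-probe region were Trf, which encodes transferrin, at a distance of 0.36, and Alas1, the first enzyme of haem synthesis, at 0.55. Their own log2 ratios were -1.08 ± 0.32 and -1.20 ± 0.04. Cspg5 (0.59), Tmem45b (0.64) and Slc36a2 (0.73) followed, with log2 ratios of -0.68, -0.56 and -0.71. Nearest to the middle region were Arhgap26 (0.67), the neutrophil granule gene Ngp (0.80), Tmem171 (0.83), Tlx1 (0.86) and Tex9 (0.88), with ratios from -0.90 for Ngp to -0.44 for Tlx1 and Tex9. Nearest to the boundary region were Net1 (0.10), Lrrc3b (0.18), Socs5 (0.20), Med16 (0.22) and Frs2 (0.22), with ratios from 0.03 for Med16 to 0.16 for Socs5.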

How the data were processed

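MCAM-enriched liver DNA of 8 samples was read on 4 Agilent arrays (2 designs, 2 replicates). Per the file headers, the authors' processed signals are background-subtracted, dye-normalized intensity values from Feature Extraction 9.1.1.1 (1 array) or 9.1.3.1 (the rest); the submitters' processing notes name 9.1.1.1. The log10 ratio (red over green) that the authors deposited served to check the direction. The deposited series-wide value table repeats these intensity values (100% within 0.6%), linear and uncentred, for each sample's own dye; its column medians on the members' design were 341 and 275 (E17.5) and 330.2 and 267 (P21). Spot flags (outlier, saturation, well above background) are deposited with them; 67.0% to 75.9% of probes were well above background at E17.5 and 71.9% to 77.1% at P21.

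From these, log2 P21/E17.5 ratios were computed, each array was centred on its median without loess, and probes within 500 bp of each other were joined into regions. Regions were tested with limma 3.58.1 (R 4.3.3, data.table, version 1.17.8), by an intercept test with Benjamini-Hochberg adjustment. It was tried beforehand on simulated data with the same spread for every region and larger changes than the Slc38a4 regions showed. That trial does not show whether changes of their size could be called. Replicates of an age are labelled as biological. Both ages of a replicate share an array, which pairs them: their deviations correlated at 0.680 over 17617 regions. No tested member probe was saturated. The filter itself leaves no tested probe below background on every array at both ages.

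Every autosomal gene matched by its Slc38 name on the array is named (Slc38a6 and Slc38a7 are not analysed here); from each list of other genes, the 3 highest and 3 lowest regions with at least 2 tested probes, and for likeness the 5 nearest regions; 1 imprinted gene that the rule names is not reported here. The members and lists were chosen with earlier results of these data known. Current names for older array names, and the promoter sequences, come from RefSeq (GRCm38.p6); sequences were matched for Slc38a2 and Slc38a4. Alternatives changed the background correction, normalization, dim-probe filter, gap, value source, replicates, variance prior and unit tested.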

Additional observations from a re-analysis of the deposited data

How the results depend on the processing

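The 2-probe and middle Slc38a4 regions were below 0 under all 11 alternatives, and the cause of each shift was not tested unless stated. Not all of these could change the sign. A gap of 200 bp and the series-wide value table left both values as they were, and leaving out a replicate returns the single-array ratios. The gene was also chosen for low ratios in these arrays, so the shared sign is a description only. With normexp the 2-probe region was at -0.47, the middle region at -0.44, the boundary region at 0.60 and Slc38a4 minus the other members at -0.30. With normexp and loess these were -0.98, -0.40, 0.061 and -0.36. With no filter on dim probes the 3 regions were at -1.06, -0.95 and -0.32. With probes well above background in both channels the middle region was at -0.78 and the difference at -0.72; the probe with the lowest ratio, the single-probe Slc38a4 region and Slc38a1 then drop out. A gap of 1000 bp joined the 2-probe region to the single dim probe and gave -0.64. A gap of 200 bp put the boundary region at 0.13 and loess at 0.015. With regions of at least 2 tested probes, chosen after the data were seen, the difference was -0.89. Leaving out 1 replicate gave -1.27 to -1.10 for the 2-probe region, -1.52 to -1.07 for the middle region, 0.05 to 0.09 for the boundary region and -0.67 to -0.44 for the difference.

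The amino acid transporter median was 0.013 at a gap of 1000 bp, 0.017 uncentred, -0.019 without the filter and -0.028 with normexp (-0.016 to 0.0025 without 1 replicate). The imprinted median was 0.044 without the filter (-0.032 to 0.0028 without 1 replicate). Against 52 regions at least 2-fold lower, there were 163 at a gap of 200 bp, 33 at 1000 bp, 23 without the filter, 15 with normexp and loess and 4 with normexp (121 to 311 without 1 replicate). Against 17 higher, there were 50 at a gap of 200 bp, 11 with normexp and loess and 26 with normexp (43 to 107 without 1 replicate). limma called 61 regions with normexp and 2 with normexp and loess, none of them Slc38, and 0 in the other settings. Without the array as a replicate block it called 0 regions, with 379 at an unadjusted p under 0.05 and a lowest adjusted p of 0.887. A fit of called regions without 1 replicate was not run, since 1 array leaves no residual degrees of freedom. Signal over background limits Slc38a1 and the single-probe Slc38a4 region most.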

Other observations

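Slc38a1, Slc38a2 and Slc38a4 lie next to one another on chromosome 15. Before Slc38a1, the nearest named region was that of Scaf11 (Sfrs2ip on the array), a splicing-related gene, 162370 bp away on the array's coordinates. Its log2 ratio of P21 over E17.5 was 0.00 on replicate 1 and -0.25 on replicate 2, or -0.12 ± 0.18 (SD, n = 2). After Slc38a4, the nearest was BC038822, 198168 bp away, where the arrays disagreed: the log2 ratio was above 0 on replicate 1 and -2.62 on replicate 2, or -0.76 ± 2.63. Amigo2, which encodes a cell adhesion protein, followed at 199895 bp, with 0.20 and 0.29, or 0.25 ± 0.06. None of these 3 regions was at least 2-fold lower on both arrays, as were only 0.295% of all regions.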
